A study of Mus musculus with 6 samples.

Results

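Nucleolar ribosome assembly factors, the proteins that make, fold and trim the RNA of new ribosomes in the nucleolus, were compared between a pair of natural killer (NK) cell populations of the mouse spleen. The members are 57 genes listed by symbol, and 54 of them are among the 8520 genes of the deposited table. Wdr12, Gar1 and Mrto4 are not among the table's genes and were not analysed here. RNA of 6 libraries was sequenced, 3 from Ly49G+ and 3 from Ly49I+ cells. Both populations came from untreated C57BL/6Ncr mice aged 6 to 8 weeks and were sorted as CD3-negative, NK1.1-positive cells. Ly49G+ cells were positive for Ly49G and negative for Ly49C/I, and Ly49I+ cells were the reverse. Ly49 receptors are surface proteins of NK cells that bind MHC class I molecules, and each cell carries only some of them. A single antibody bound both Ly49C and Ly49I, so the Ly49I+ sort does not separate these receptors. The spleens of 20 mice were used. The labels call the libraries biological replicates but do not tell how many mice fed each one, so the p-values cover only the spread between libraries, which may be technical.

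Ribosomes are built around RNA that RNA polymerase I (Pol I) transcribes in the nucleolus. Small nucleolar RNAs (snoRNAs), held in protein complexes called snoRNPs, guide chemical changes of that RNA: box C/D snoRNPs add methyl groups and box H/ACA snoRNPs make pseudouridine. The small-subunit (SSU) processome folds and cuts the part that becomes the 40S subunit, while other factors and GTPases prepare the 60S subunit and take it to the cytoplasm. In lymphocytes these genes are known to rise when resting cells are activated and grow, and many are known targets of the transcription factor MYC.

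NK cell markers were measured for 10 of 10 listed genes, with sums of 14318 to 14538 CPM (reads per 1000000 reads of the library) in Ly49G+ and 14859 to 15556 CPM in Ly49I+ libraries. Eomes passed the limma test as higher in Ly49G+, and Tbx21 and Prf1 as lower. Library totals ran from 33599679 to 40892154 reads, and the member with the fewest reads in any library had 292, so the spread between libraries rather than counting error limited these comparisons. Some markers of other cells moved with the members. The 7 of 11 listed T cell markers that were measured summed to 364 to 433 CPM in Ly49G+ and 246 to 264 CPM in Ly49I+ libraries. Of these 7 markers 5 passed the test as higher in Ly49G+. Trbc1 and Cd28 were the largest parts of the sums. Trbc1 stood at 128, 134 and 132 CPM in Ly49G+ and 116, 115 and 109 CPM in Ly49I+ libraries. Lower in level but further apart were Cd3e, at 9.27, 18.5 and 11.5 CPM against 0.592, 1.06 and 1.22 CPM, and Trac, at 20.6, 34.6 and 29.4 CPM against 4.95, 9.57 and 8.19 CPM. Cd4, Cd8a, Cd8b1 and Cd5 are not among the table's genes. Of 24 measured proliferation genes 4 passed as higher (8 with the replicate block described below), and their sums were 2021 to 2198 CPM against 1743 to 1793 CPM. Myeloid and dendritic cell markers (11 of 16 measured) went the other way, with 7 passing as lower in Ly49G+ and 0 as higher. Their sums were 1184 to 1309 CPM against 1271 to 2192 CPM, the highest in Ly49I+ replicate 2. The largest part of these sums was Itgax, at 1037, 1083 and 1120 CPM in Ly49G+ and 827, 931 and 945 CPM in Ly49I+ libraries. Unlike Itgax, Lyz2 was higher in every Ly49I+ library, at 6.41, 13.2 and 22.6 CPM against 98.6, 352 and 72.5 CPM. Of the 3 measured B cell markers of 9, Cd22 passed as higher in Ly49G+, at 41.7, 43.8 and 52.9 CPM against 20.4, 32.2 and 21.3 CPM. Ighm (log2 difference of Ly49G+ minus Ly49I+ 0.45 ± 0.21, SE) and Igkc (-1.25 ± 0.68) did not pass. Igkc was at 5.34, 8.87 and 34.9 CPM in Ly49G+ and 14.6, 76.6 and 20.0 CPM in Ly49I+ libraries. The sums of the 3 markers overlapped, at 308 to 424 CPM in Ly49G+ and 193 to 426 CPM in Ly49I+. None of the 9 erythroid and platelet markers is in the table. The part of these cells in the members' differences was not tested. In bulk RNA, fewer cells of a type and less RNA per cell cannot be told apart.

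RNA of the listed members tended to be higher in Ly49G+ than in Ly49I+ cells, by small amounts. The members were chosen with earlier results of these data known. Their counts beside those of all genes are therefore descriptions and not a test. Of 90 further assembly genes, described below, 1 passed as higher, and their median log2 difference of Ly49G+ minus Ly49I+ was 0.08. Of the 54 measured members 13 passed as higher in Ly49G+ (limma, Benjamini-Hochberg adjusted p under 0.05 over all genes), 0 passed as lower and 41 did not pass. Over all 8520 genes 155 (1.82%) passed as higher and 151 as lower. At an unadjusted p under 0.05 the members numbered 24 higher and 0 lower, and all genes 817 higher and 870 lower. The 13 were Npm1, Rpf2, Gnl3, Nop58, Taf1d, Dkc1, Nmd3, Nsa2, Ncl, Wdr43, Nifk, Ddx10 and Rsl1d1, and their folds ran from 1.27 to 1.55 with a median of 1.36. The difference was above 0 in 50 of 54 members, against 46.5% of all genes. The median log2 difference of Ly49G+ minus Ly49I+ was 0.19 over members, a 1.14-fold higher level, and -0.02 over all genes. In 29 members every Ly49G+ library lay above every Ly49I+ library, as it did in 12.5% of all genes. No member lay wholly the other way, while 1138 of the 8520 genes did. All 13 members that passed are among the 29.

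**Figure D1:**
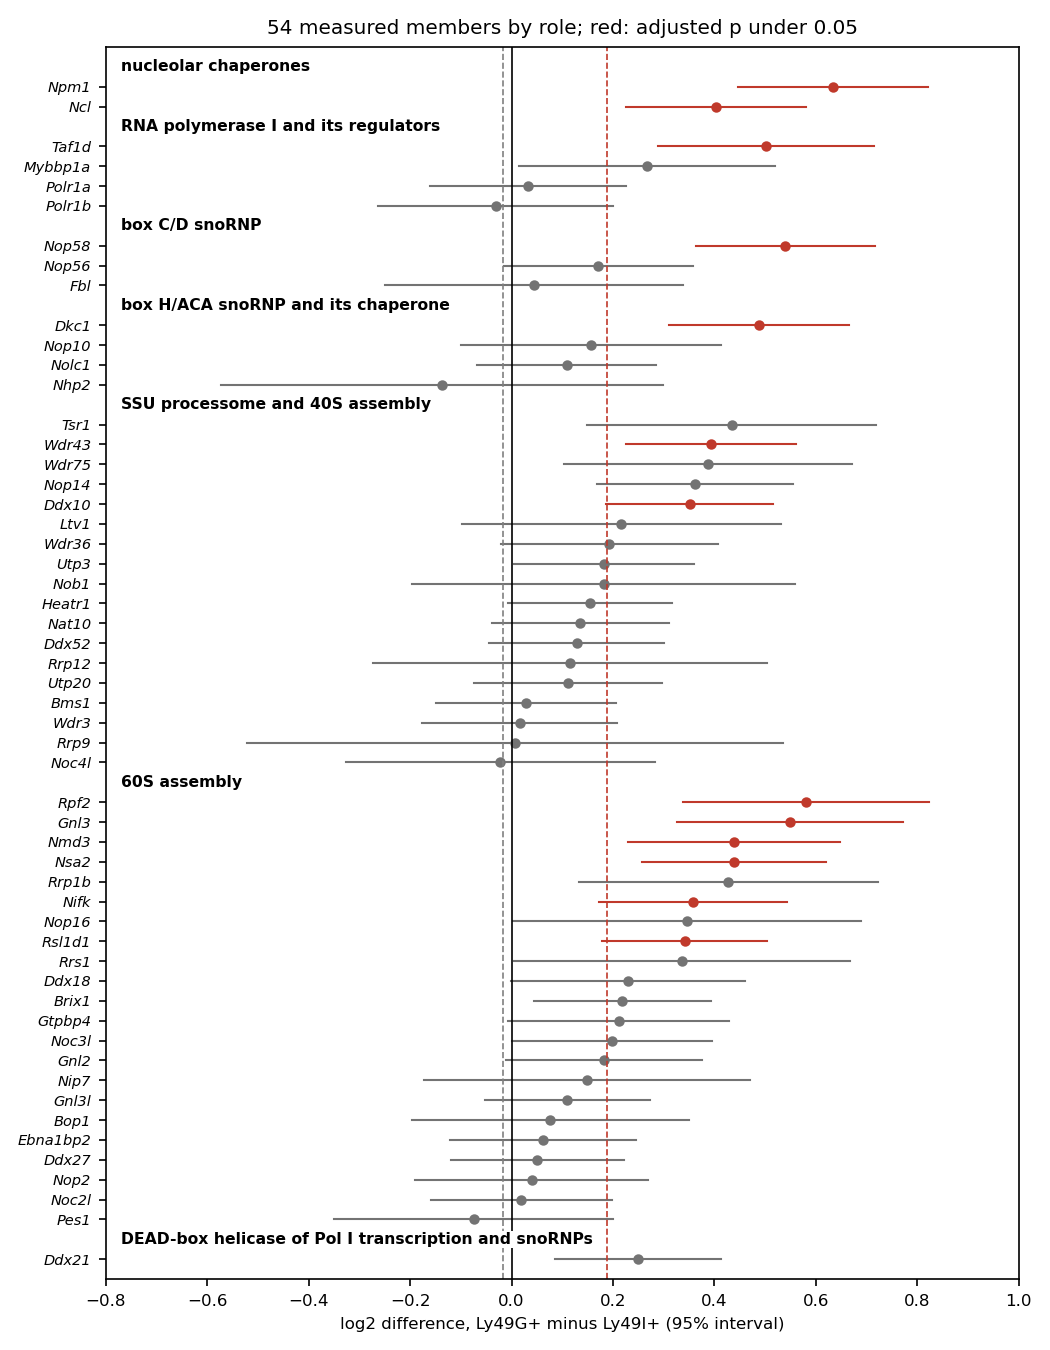
The log2 difference of Ly49G+ minus Ly49I+ (horizontal axis) is plotted for the 54 measured members, grouped by role, as points with 95% intervals from limma. Red marks the 13 members with an adjusted p under 0.05, the red dashed line the members' median of 0.19 and the grey dashed line the median of all genes at -0.02; 24 intervals lie wholly above 0 and 30 reach it.

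Both nucleolar chaperones were higher in Ly49G+ cells. Npm1 (gene 18148, GRCm38.p6 chr11:33152498-33164142) encodes nucleophosmin, an abundant protein that holds the nucleolus together and carries ribosomal particles. Its level was 539.9, 631.5 and 563.1 CPM in the Ly49G+ libraries and 381.8, 392.8 and 342.4 CPM in the Ly49I+ libraries. The groups did not overlap, and the difference of 0.63 ± 0.08 (log2, SE, n = 3 per group) was the largest of any member (limma adjusted p = 0.00295, 95% interval 0.45 to 0.82). Npm1 has near-identical processed copies in the genome, and no source used here says how reads shared with them were counted. Ncl (gene 17975, chr1:86344719-86359455) encodes nucleolin, which binds new ribosomal RNA. It stood at 807, 885 and 823 CPM in Ly49G+ and 676, 648 and 580.1 CPM in Ly49I+ libraries. Its groups were apart too, with a smaller log2 difference of 0.40 ± 0.08 (limma adjusted p = 0.0199).

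Of the 4 members of the Pol I group, 1 was higher and the polymerase's own core subunits did not pass. Taf1d (gene 75316, chr9:15305953-15316997) encodes a subunit of SL1, the factor that places Pol I on its promoter. Its values were 85.9, 97.7 and 80.5 CPM in Ly49G+ and 67.2, 61.6 and 57.5 CPM in Ly49I+ libraries, without overlap. The log2 difference was 0.50 ± 0.10 (limma adjusted p = 0.0168). Polr1a and Polr1b encode the core subunits that form the polymerase's active centre. Polr1a averaged 59.2 ± 1.97 CPM in Ly49G+ and 58.0 ± 4.82 CPM in Ly49I+ (SD, n = 3 each). The 95% interval of its log2 difference was -0.16 to 0.23, and that of Polr1b was -0.26 to 0.20. Mybbp1a, which encodes a nucleolar regulator of Pol I transcription, did not pass (log2 difference 0.27 ± 0.11, limma adjusted p = 0.233) but did with the replicate block described below (adjusted p = 0.0314).

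In each snoRNP complex 1 protein was higher and its partners did not pass. Nop58 (gene 55989, chr1:59684961-59711510), a scaffold of box C/D snoRNPs, was measured at 81.5, 79.3 and 77.6 CPM in Ly49G+ and 58.5, 53.4 and 52.2 CPM in Ly49I+ libraries. The replicates lay close together and the groups far apart, giving a log2 difference of 0.54 ± 0.08 (limma adjusted p = 0.00441). Nop56, the scaffold that pairs with NOP58, had a log2 difference of 0.17 ± 0.08, and Fbl, which encodes the methyltransferase fibrillarin, had 0.04 ± 0.13. Fbl values overlapped fully, at 29.2, 23.5 and 30.1 CPM against 23.8, 25.7 and 30.7 CPM. Dkc1 (gene 245474, chrX:75095854-75109776) encodes dyskerin, the pseudouridine synthase of box H/ACA snoRNPs and a part of telomerase. Its values were 72.7, 81.9 and 76.4 CPM in Ly49G+ and 55.9, 55.9 and 52.8 CPM in Ly49I+ libraries. All Ly49G+ values were higher, by 0.49 ± 0.08 on the log2 scale (limma adjusted p = 0.00789). Nhp2, another core protein of the same particle, had the lowest difference of all members, -0.14 ± 0.20. Its values of 9.63, 13.9 and 11.7 CPM in Ly49G+ and 10.1, 13.4 and 15.4 CPM in Ly49I+ overlapped. Nop10 had 0.16 ± 0.12 and Nolc1, a chaperone of snoRNPs, 0.11 ± 0.08. Whether Nop58 and Dkc1 differed from their partners was not tested.

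**Figure D2:**
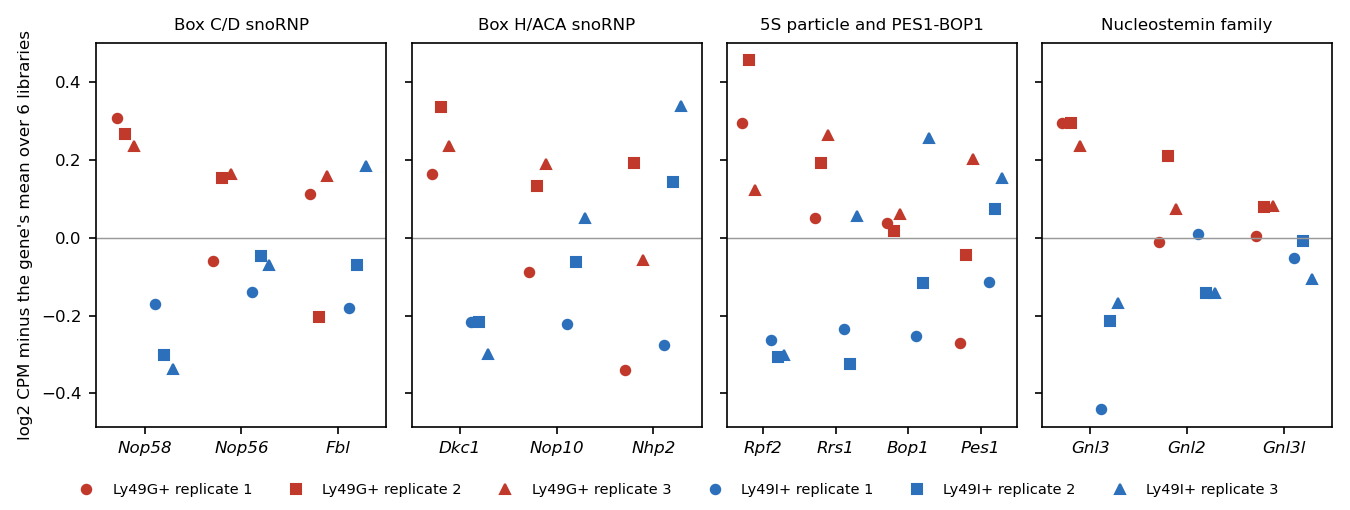
Each point is 1 library's log2 CPM minus the gene's mean over the 6 libraries (vertical axis), for proteins that share a complex or family. Red marks Ly49G+ and blue Ly49I+, with a circle, square or triangle for replicates 1, 2 and 3. Red and blue lie apart in Nop58, Dkc1, Rpf2 and Gnl3 and, more narrowly, in Gnl3l, which did not pass. They overlap in the other genes plotted, among them Fbl, Nhp2, Bop1 and Pes1.

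Of 18 factors of the SSU processome and 40S assembly, 2 passed as higher, and the group's median log2 difference was 0.17. The 17 with a difference above 0 leave Noc4l, at -0.02, as the exception. Wdr43 (gene 72515, chr17:71616178-71659031) encodes an early component of the processome. It was measured at 114.1, 129.7 and 124.1 CPM in Ly49G+ and 94.3, 93.7 and 91.9 CPM in Ly49I+ libraries. These do not overlap, and the log2 difference was 0.39 ± 0.08 (limma adjusted p = 0.0174). Ddx10 (gene 77591, chr9:53098454-53248170) encodes an RNA helicase of 40S assembly. Its levels of 169.2, 167.3 and 157.4 CPM in Ly49G+ exceeded those of 137.5, 125.9 and 124.1 CPM in Ly49I+. The log2 difference was 0.35 ± 0.07 (limma adjusted p = 0.0272). Nop14, a processome subunit, lay just outside the threshold with 0.36 ± 0.09 (limma adjusted p = 0.0508; 0.0143 with the replicate block). Tsr1 and Wdr75 had differences as large, 0.43 ± 0.13 and 0.39 ± 0.13, with wider errors. The other 13 ran from -0.02 in Noc4l to 0.22 in Ltv1. Among them Bms1, the GTPase of the processome, averaged 172.5 ± 6.59 CPM in Ly49G+ and 169.4 ± 14.1 CPM in Ly49I+ (SD, n = 3 each).

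Of the 60S assembly factors, the largest group, 6 of 22 passed as higher, with a median log2 difference of 0.21. Rpf2 (gene 67239, chr10:40223246-40247039) encodes a factor that, with RRS1, brings the 5S RNA particle into the early 60S subunit. It stood at 31.7, 35.4 and 28.1 CPM in Ly49G+ and 21.5, 20.9 and 20.98 CPM in Ly49I+ libraries. The Ly49G+ libraries were spread more widely, yet all lay above, by 0.58 ± 0.11 on the log2 scale (limma adjusted p = 0.0161). Its partner Rrs1 differed by 0.34 ± 0.15 and did not pass (limma adjusted p = 0.248). Gnl3 (gene 30877, chr14:31012433-31019131) encodes nucleostemin, a nucleolar GTPase known from stem cells and dividing cells. Its levels were 38.9, 38.9 and 37.3 CPM in Ly49G+ and 23.4, 27.3 and 28.2 CPM in Ly49I+. The groups were apart, by 0.55 ± 0.10 (log2, limma adjusted p = 0.014). The related GTPase genes Gnl2 and Gnl3l had differences of 0.18 ± 0.09 and 0.11 ± 0.07 and did not pass.

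Among the other 60S factors that passed, Nmd3 (gene 97112, chr3:69722055-69749047) encodes the adaptor that exports the subunit from the nucleus. Its values of 44.6, 44.99 and 42.0 CPM in Ly49G+ lay above 35.3, 32.2 and 29.7 CPM in Ly49I+. The log2 difference was 0.44 ± 0.09 (limma adjusted p = 0.029). Nsa2 (gene 59050, chr13:97129427-97137926), needed to mature the 60S RNA, was measured at 134.0, 153 and 136.4 CPM in Ly49G+ and 110.3, 103.5 and 98.5 CPM in Ly49I+ libraries. Again no library crossed over, and the log2 difference was 0.44 ± 0.08 (limma adjusted p = 0.0156). Nifk (gene 67949, chr1:118321843-118333831) encodes a nucleolar protein that binds the proliferation antigen Ki-67. It had 49.5, 49.7 and 54.5 CPM in Ly49G+ and 40.9, 38.7 and 40.3 CPM in Ly49I+, and of the members called it had the weakest support (0.36 ± 0.08, limma adjusted p = 0.0439). Rsl1d1 (gene 66409, chr16:11193037-11203292), which encodes a nucleolar protein with a ribosomal L1 domain, reached 122.4, 122.9 and 130.8 CPM in Ly49G+ and 96.3, 103.9 and 96.7 CPM in Ly49I+ libraries. The groups did not overlap (0.34 ± 0.07, limma adjusted p = 0.029). Among the 60S factors 21 of 22 differences were above 0, and that of Pes1 was -0.07. Pes1 and Bop1, which form a complex with WDR12, did not pass and had intervals of -0.35 to 0.20 and -0.20 to 0.35. The 14 other 60S factors that did not pass, the partners above included, ran from 0.02 in Noc2l to 0.43 in Rrp1b.

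Ddx21 encodes a helicase that works both in Pol I transcription and with snoRNAs. Its levels were 196.7, 212.8 and 193.1 CPM in Ly49G+ and 174.0, 159.5 and 173.4 CPM in Ly49I+ libraries. The groups were apart, but the log2 difference of 0.25 ± 0.07 did not pass (limma adjusted p = 0.099; 0.0402 with the replicate block).

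**Figure D3:**
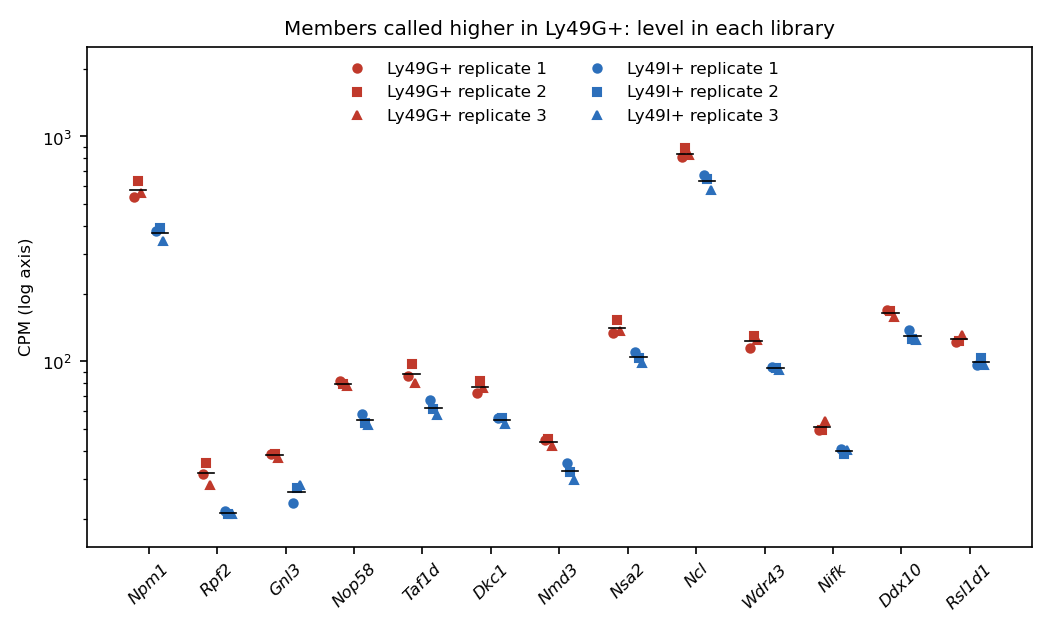
The level in CPM (vertical log axis) is plotted in each of the 6 libraries for the 13 members that passed, ordered by log2 difference. Red marks Ly49G+ and blue Ly49I+, symbols mark the replicate and black bars the group means; in every gene the 3 red points lie above the 3 blue points.

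The members' level also varied between libraries of 1 group. The mean deviation of the 54 members from their own means was 0.06, 0.17 and 0.11 (log2) in Ly49G+ replicates 1, 2 and 3, and -0.15, -0.11 and -0.08 in Ly49I+ replicates 1, 2 and 3. Ly49G+ replicate 2 held the highest value of 23 members. The lowest was in Ly49I+ replicate 1 for 18 members and in Ly49I+ replicate 3 for 18. Ly49I+ replicate 3 also held the highest value of 9 members. In Ly49I+ replicates 1, 2 and 3 the 13 that passed averaged -0.19, -0.22 and -0.28, and the other 41 averaged -0.13, -0.08 and -0.01. The 13 were picked by these same values as low in Ly49I+, so the direction of this gap follows from the choice. With the replicate number as a block 19 members passed, against 5.69% of all genes; Mybbp1a, Wdr75, Nop14, Tsr1, Rrp1b and Ddx21 joined the 13. Leaving out single libraries, which leaves fewer samples to test, lowered the count in 5 of 6 cases. Without Ly49G+ replicate 2 only Npm1 and Nop58 passed, and without Ly49I+ replicate 2 those and Dkc1 and Gnl3. Without Ly49G+ replicate 1 the count was 5 (Npm1, Nop58, Dkc1, Wdr43, Nsa2), and without Ly49G+ replicate 3 it was 6 (Npm1, Taf1d, Nop58, Dkc1, Rpf2, Gnl3). In these fits, in the order named, 45, 110, 75 and 79 of all genes passed as higher, against 155 with all 6 libraries. Only Npm1 and Nop58 passed under each of the 17 alternatives run.

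The size of the difference followed the GC content of the transcript. Over the 54 members Spearman's rho between the GC of the longest coding transcript and the log2 difference was -0.67, and over the 8235 genes with such a transcript it was -0.52. Genes are not independent replicates, and these are descriptions of the same 6 libraries. Transcript length showed no such relation among members (rho -0.01). All 13 members that passed had a GC content of 38.9% to 45.4%, under the all-gene median of 49.4%. They were 13 of the 33 members under that median, where 2.48% of all genes passed as higher. At or above it 0 of the 21 members passed, and 1.14% of all genes passed as higher. The longest transcript can be a rare isoform, and for some members the GC depends on this choice. With the median GC over all coding transcripts of a gene, Ncl was at 52.0% and Nmd3 at 47.8%, 12 of the 13 lay under the all-gene median of 50.2%, and rho was -0.61 over members and -0.52 over all genes. Libraries differed in this trend: the 20% of genes with the highest GC had a median deviation of -0.10, -0.13 and -0.0042 (log2) in Ly49G+ replicates 1, 2 and 3 and of -0.09, 0.04 and 0.27 in Ly49I+ replicates 1, 2 and 3.

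After each library's GC trend was removed with a spline, a step added after seeing the data, 16 members passed as higher and 0 as lower, against 4.07% of genes higher. The 13 members above were all kept, and Mybbp1a, Nop14 and Rrp1b joined. With the replicate block as well the same 16 passed, against 4.93% of genes. The differences of the 13 became smaller, 1.20- to 1.46-fold. Corrected by the median GC instead, 15 members passed, against 3.85% of genes: Rsl1d1 did not (limma adjusted p = 0.0703), and Ncl went from 0.40 to 0.46. In the fit by the longest transcript Npm1 went from 0.63 to 0.54 and Nop58 from 0.54 to 0.43 on the log2 scale. There the GC-rich members Fbl and Bop1 moved the other way, Fbl from 0.04 to 0.21 and Bop1 from 0.08 to 0.26, without passing. The members' median in that fit was 0.21 and 51 of 54 differences were above 0.

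**Figure D4:**
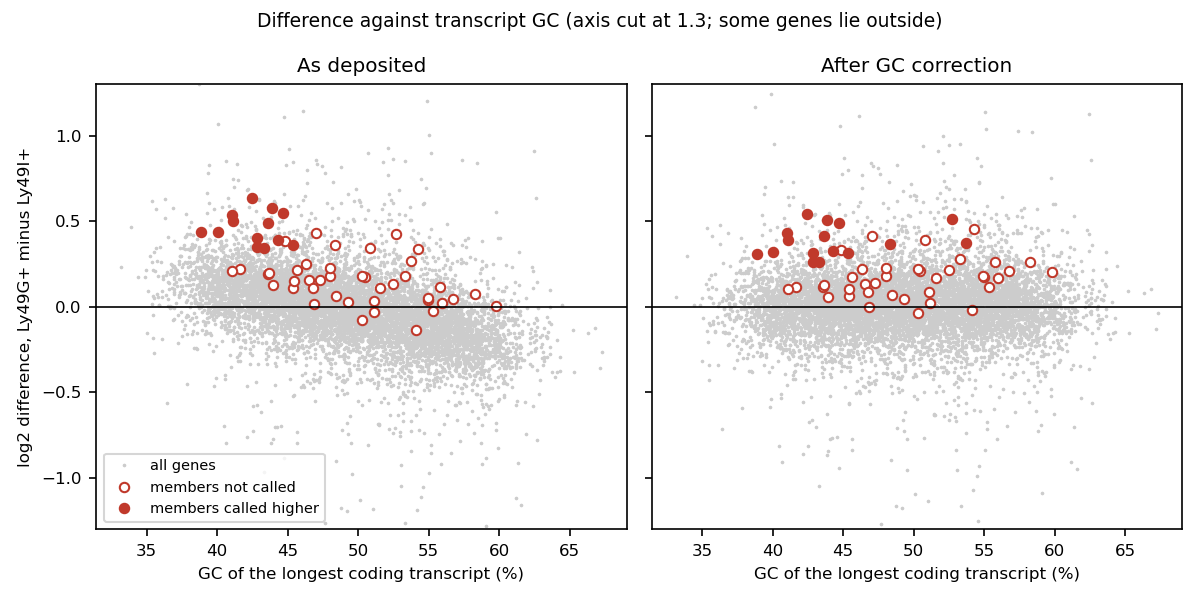
The log2 difference of Ly49G+ minus Ly49I+ (vertical axis) is plotted against the GC content of the longest coding transcript in percent, as deposited (left) and after GC correction (right). Grey points are all genes with a transcript and red circles the 54 members, filled where they passed; the downward trend at left (rho -0.52 over all genes) is removed at right, where 16 members passed.

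Some members carry snoRNAs inside their own gene, so that 1 transcript can yield both a mRNA and a snoRNA. By the GENCODE annotation 8 members do: Ncl, Taf1d, Nop56, Nop58, Dkc1, Wdr43, Tsr1 and Gnl3. Of these 6 passed as higher, all but Nop56 and Tsr1, against 7 of the 46 others. Over all genes with a transcript 13 of 173 such hosts (7.51%) and 136 of 8062 others (1.69%) passed as higher. The median log2 difference was 0.46 in the 8 hosts and 0.17 in the 46 others, and the hosts' median GC of the longest transcript was lower, 44.0% against 48.2%. After GC correction 6 of 8 hosts and 10 of 46 others passed, and over all genes 28 of 173 hosts and 307 of 8062 others. The 173 hosts include the 8 members. This split was made after the values were seen, and no source used here says whether reads from introns were counted.

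MYC is known to bind the letters CACGTG, called an E-box, and the members' promoters were searched for them. The window ran from 250 bases before to 50 bases after the start of the transcript (RefSeq, GRCm38.p6). CACGTG reads the same on both strands. It was found in 9 of 46 members with a window (19.6%) and in 829 of 6842 genes (12.1%). Counting only bases before the start, it was in 3 of 46 members (6.52%) and 10.4% of genes. Among members that passed 3 of 12 held it, Nmd3, Rpf2 and Wdr43, and among those that did not pass 6 of 34. A match is a description of the letters and not a bound site. The stretches below show it in the 3 members that passed and, for contrast, in Nop2, which encodes a 60S RNA methyltransferase and did not pass (0.04 ± 0.10). Capitals mark the E-box, whose first base lies 114 bases before the start in Nmd3, 26 before in Rpf2, 60 before in Nop2 and 18 after in Wdr43.
Nmd3, chr3:69721929-69721958, plus strand: cgccccttgctaCACGTGtattctttgacc
Rpf2, chr10:40246988-40247017, minus strand: aagtaatcggtaCACGTGcattcgctaagg
Wdr43, chr17:71616220-71616249, plus strand: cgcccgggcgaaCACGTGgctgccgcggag
Nop2, chr6:125131811-125131840, plus strand: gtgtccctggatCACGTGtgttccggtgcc
Rpf2 has another annotated start, from which the same box lies 35 bases after the start.

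Myc itself was higher in Ly49G+ cells. Its level was 78.8, 70.7 and 95.2 CPM in Ly49G+ and 48.2, 58.7 and 61.7 CPM in Ly49I+ libraries, without overlap (log2 difference 0.53 ± 0.13, limma adjusted p = 0.0442). Its adjusted p ran from 0.0275 to 0.136 with 1 library left out and was 0.00202 with the replicate block. Of the 9 measured genes of the Myc network Myc alone passed, and their median was 0.04. At an unadjusted p under 0.05 in limma, 1 of them was higher and 2 were lower. With the block Mnt, which encodes a repressor that competes with MYC, passed as lower (-0.35 ± 0.20 and limma adjusted p = 0.339 without the block, adjusted p = 0.0459 with it). Other genes of ribosome production were counted in the same fit. Of 90 further assembly genes 1 passed, Nufip1, which encodes a box C/D snoRNP assembly factor (0.50 ± 0.12, limma adjusted p = 0.0446; 0.0276 to 0.209 with 1 library left out), and their median log2 difference was 0.08. In that list 10 were higher and 1 lower at an unadjusted p under 0.05, 5 passed as higher with the block, 4 after GC correction and 6 with both. None of 9 further Pol I genes passed in limma (median 0.04; 0 at an unadjusted p under 0.05, and 0 with the block). None of 12 RNA exosome genes passed either (median 0.17; 2 higher at an unadjusted p under 0.05, and Dis3 with the block, adjusted p = 0.0312). Whether the members differ from these lists was not tested.

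Genes for the proteins of the finished ribosome mostly differed in the members' direction. Of 75 cytosolic ribosomal protein genes 10 were higher and 0 lower, with a median log2 difference of 0.22 and 73 above 0; 36 passed with the replicate block and 38 after GC correction. Rpl23 had the smallest p of these (0.48 ± 0.06, limma adjusted p = 0.00295). Rpl5, whose protein rides with 5S RNA in the particle that RPF2 and RRS1 bring in, was at 468 ± 35.0 CPM in Ly49G+ and 343 ± 11.1 CPM in Ly49I+ cells (SD, n = 3 each; log2 difference 0.45 ± 0.08, limma adjusted p = 0.00893; 0.0122 to 0.0705 with 1 library left out). Ribosomal protein genes have many processed copies, and their shared reads carry the same limit as those of Npm1. Among proliferation genes Cenpe, a mitotic motor protein gene, had the smallest p (0.62 ± 0.10, limma adjusted p = 0.00716). Mki67, which encodes the Ki-67 antigen that NIFK binds, was higher as well (0.43 ± 0.09, limma adjusted p = 0.0241; 0.0106 to 0.16 with 1 library left out).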

How the data were processed

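Per the labels' protocols, 0.4 µg of total RNA went into each stranded library, read in 100-base pairs. The submitters' processing notes name mm10 as the build, STAR 2.3.0, CASAVA 1.8.2 and limma. How reads were counted, on which annotation, and how low genes were left out is not given in these sources. The authors deposited log2 CPM for 8520 genes by NCBI gene number. Solving limma's voom formula (0.5 added to the count, 1 to the total) gave whole reads for 100% of values within 0.001 read. Names came from RefSeq GRCm38.p6 (8429 genes) and GENCODE (1), and 90 genes stayed unnamed. The second-highest value of every gene was at least 10.0 CPM, and all 54 measured members reached 10 CPM in 2 or more libraries of each group. Library totals were recovered with the reads. No replicate pair agreed within sampling noise (chi-square per degree of freedom 25.2 to 81.2).

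Ly49G+ minus Ly49I+ was tested with limma 3.58.1 (R 4.3.3) on the log2 values, with an intensity trend, two-sided, Benjamini-Hochberg adjusted over all 8520 genes at 0.05. A fold is 2 to the power of the log2 difference. Steps were tested on simulated data. The labels number the replicates 1 to 3 in both groups. Same-numbered libraries deviated together (correlations over all genes 0.371, 0.114 and 0.156, all over 0.1), which is the ground for giving the replicate block where it changes a call. The labels name no shared mice or day, and some differently numbered pairs correlated as much (Ly49G+ replicate 3 with Ly49I+ replicate 2 0.359, Ly49G+ replicate 2 with Ly49I+ replicate 1 0.115). After GC correction the same-numbered pairs correlated at 0.302, 0.0598 and -0.125. They are not all over 0.1, so this ground does not hold for the GC corrected fit with the block. GC correction removed, in each library, a natural spline (5 degrees of freedom) of the deviations on transcript GC over 8235 genes with a GENCODE M21 coding transcript, the longest of each gene or, as another alternative, the median over all. A trend shared by genes of like GC is removed whatever its source. Other alternatives were no intensity trend, a robust prior, median centring, quantile normalization, array weights, voom weights, a minimum mean level and leaving out each library.

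The members and lists were chosen with earlier results of these data known. Named with values are every member that passed, the members with the highest and lowest difference, Ddx21 as the best of a role without a call, Myc, and from the other lists genes with the smallest p. Complex partners, Polr1a and Polr1b, the members near the threshold, Bms1, Nop2, Mnt, and Rpl5 and Mki67 for their link to a member, were chosen after their values were seen. Software was pandas 2.3.3 and numpy 2.4.6 under Python 3.11.15, with matplotlib 3.10.9 for plots.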

Additional observations from a re-analysis of the deposited data

How the results depend on the processing

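Over 17 alternatives the members' median log2 difference stayed between 0.16 and 0.23, and no member that passed changed sign. Members higher in Ly49G+ numbered 20 with array weights, 9 without the intensity trend and 2 to 14 when 1 library was left out. With the replicate block the member count was 19, with no other member call changed than the 6 gained. Over all genes the higher calls were 335 with GC correction (317 by the median transcript), 406 with GC correction and the block, 585 with array weights, 485 with the replicate block, and 45 to 297 with 1 library left out. The lower calls were 235, 280, 676 and 508 in that order, 96 among genes whose mean log2 CPM was 4 or more, and 49 to 347 with 1 library left out. For 41 named genes 581 of 695 alternative values kept direction and call, 61 lost the call, 30 gained it and 23 changed sign. The sign changes fell in genes near 0 that did not pass. With 1 library left out, log2 differences spanned -0.034 to 0.085 in Polr1a, -0.054 to 0.0050 in Polr1b, -0.035 to 0.16 in Fbl, -0.018 to 0.095 in Bms1, -0.19 to 0.042 in Pes1, -0.030 to 0.22 in Bop1, -0.023 to 0.13 in Nop2, -0.16 to 0.068 in Noc4l and -0.021 to 0.050 in Noc2l. Polr1b and Noc4l became 0.021 and 0.12 with GC correction, with and without the block (Noc4l 0.11 by the median transcript), and 0.022 and 0.026 after quantile normalization. Noc2l became -0.013 with array weights. Without Ly49I+ replicate 1 and Ly49I+ replicate 3 the member counts were 14 and 12. Array weights ranged from 0.45 in Ly49I+ replicate 3 to 3.86 in Ly49I+ replicate 2. The causes were not tested. Counting error is small here, and 3 libraries per group limit the precision.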
